A study of Mus musculus with 128 samples.

Results

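The genes described here are 37 genes whose products build or control the apparatus that separates chromosomes: the spindle, the kinetochore and the cohesin ring. They were picked by gene symbol out of 41300 genes in the table for their known roles, with earlier results of these data known. Messenger RNA was measured in single mouse oocytes and single early embryos of the C57BL/6 strain. Oocytes arrested in the second meiotic metaphase (MII) were unfertilized, and embryos were taken 1.5 days after fertilization (2-cell), after 2.5 days (4-cell) and after 3.5 days (8-cell). At each stage 16 libraries were labelled wildtype (genotype m+/p-) and 16 knockout (m-/p-) for Kdm4a, a histone demethylase of methylated H3K9 and H3K36. Eggs of both genotypes were fertilized with Kdm4a knockout sperm, so that all embryos lacked a functional paternal copy and the genotypes differed in the maternal copy. The unfertilized wildtype oocytes carry the same genotype label. Sampling of both genotypes followed the progress of the control embryos, and the part of developmental progress in the genotype differences was not tested. The labels name neither the mothers nor the deleted exons. A p-value here thus reflects variation among single oocytes or embryos, and how far females vary is not known.

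At each division, microtubules of the spindle attach to kinetochores, protein assemblies that form on centromeric chromatin marked by the histone variant CENP-A. The chromosomal passenger complex destabilizes faulty attachments, and the spindle assembly checkpoint holds back the anaphase promoting complex until all chromosomes are attached. Securin is then destroyed, separase is freed and cleaves cohesin, and sister chromatids part. A mouse oocyte arrested at MII holds a finished meiotic spindle and stored transcripts from its growth, many of which are cleared around the 2-cell stage, when the embryo's own genome becomes active.

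Of the 128 libraries, 127 were used, with 528377 to 4657857 counts each (median 2130015); 8-cell knockout replicate 4 held 419 counts and was left out. All levels are given as CPM, the count of a gene scaled by its library's total, and so as a share of the library: fewer cells, less RNA per cell and a change of other transcripts cannot be told apart from it. Kdm4a itself was lower in knockout libraries at MII (means of 10.9 against 1.27 CPM), in 2-cell embryos (15.1 against 2.65 CPM) and in 4-cell embryos (4.59 against 1.76 CPM). In 8-cell embryos it was near the floor in both genotypes (1.31 against 1.99 CPM, two-sided permutation p = 0.29). The summed level of 9 oocyte markers ran from 10355 to 13734 CPM in MII wildtype libraries and from 21.5 to 101 CPM in 8-cell wildtype libraries, and 14 cumulus and granulosa cell markers summed to at most 68.0 CPM in any library, with Amh at 0 in all of them.

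A pair of libraries stood apart from the others with the same label. In the library labelled 8-cell knockout 7, 9 of the 37 genes lay above and 23 below the range of the other 14 knockout libraries: Nuf2 stood at 549 CPM against 19.1 to 58.6, Mad2l1 at 2596 against 583 to 900.5, and Aurkb, Incenp, Spc24, Nsl1, Tacc3 and Stag3 at 0. Its oocyte marker sum was 3256 CPM, its 8-cell marker sum 1.44 CPM and its mitochondrial share 16.5%, where the highest 8-cell wildtype library had 7.22%. In the library labelled MII knockout 15, 7 genes lay above and 19 below the other 15 libraries: Bub1b was at 4.77 CPM against 785 to 1415 in the others, Smc3 at 14.9 against 700.1 to 1141, Spc25 at 833 against 37.6 to 79.1, and Ttk at 388 against 46.2 to 65.9. Its oocyte marker sum was 3073 CPM, against a median of 15241 CPM in its group. Genotype calls that involve this pair are given with and without it. Single 4-cell libraries also differed in marker sums or mitochondrial share. Oocyte markers summed to 851 CPM in knockout 15 (group median 194), and 2-cell markers to 1265 CPM in wildtype 11 (group median 74.9). Knockout 6 had a mitochondrial share of 13.5% (group median 7.95%). No 4-cell member call was lost in the fits that left out replicate number 6, 11 or 15.

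Promoters of many of these genes share a pair of sequence elements known from human and mouse genes of the late cell cycle: the CHR element, searched as TTTGAA or TTCGAA, and the CCAAT box, searched as CCAAT, on both strands. Promoter windows from RefSeq (build GRCm38.p6) ran from 250 bases before to 50 after the start and were found for 30 of the 37 genes, in 31 windows. A CHR was in 51.6% of the member windows and 19.2% of 32851 windows of all genes, a CCAAT box in 67.7% and 37.4%, and both in 45.2% and 7.52%. This is a description of matches, not of bound sites. The windows of 4 genes called in knockout 2-cell embryos, chosen after their values were seen, are printed with matches in capitals: Cdca8, Bub3 and Cenpa hold both elements, while Birc5 holds neither in this window. A CHR and a CCAAT match overlap in the Cdca8 window. In the knockout 2-cell embryos described further on, Bub3, Cdca8 and Birc5 were higher and Cenpa was lower.
Cdca8: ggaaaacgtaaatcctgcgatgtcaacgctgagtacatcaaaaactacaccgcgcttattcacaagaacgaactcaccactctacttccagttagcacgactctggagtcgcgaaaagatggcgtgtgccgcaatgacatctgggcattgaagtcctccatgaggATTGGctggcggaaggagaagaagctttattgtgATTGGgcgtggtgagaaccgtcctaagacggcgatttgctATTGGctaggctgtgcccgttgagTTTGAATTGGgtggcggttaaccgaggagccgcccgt
Bub3: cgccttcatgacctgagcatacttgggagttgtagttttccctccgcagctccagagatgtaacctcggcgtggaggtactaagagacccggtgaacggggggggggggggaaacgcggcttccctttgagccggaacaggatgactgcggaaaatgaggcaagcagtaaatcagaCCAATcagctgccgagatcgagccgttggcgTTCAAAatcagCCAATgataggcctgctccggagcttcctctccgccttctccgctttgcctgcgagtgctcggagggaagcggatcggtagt
Cenpa: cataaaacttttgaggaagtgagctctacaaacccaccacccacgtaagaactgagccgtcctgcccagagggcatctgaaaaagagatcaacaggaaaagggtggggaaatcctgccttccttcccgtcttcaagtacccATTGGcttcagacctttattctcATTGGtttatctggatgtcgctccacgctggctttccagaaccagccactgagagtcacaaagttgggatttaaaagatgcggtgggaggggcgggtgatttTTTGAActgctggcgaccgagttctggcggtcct
Birc5: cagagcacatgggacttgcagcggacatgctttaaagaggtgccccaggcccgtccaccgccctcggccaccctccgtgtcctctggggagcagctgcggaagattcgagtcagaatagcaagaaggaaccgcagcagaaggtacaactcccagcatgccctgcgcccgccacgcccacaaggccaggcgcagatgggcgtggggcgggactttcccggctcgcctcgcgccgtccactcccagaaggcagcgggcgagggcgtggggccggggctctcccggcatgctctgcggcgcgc
The windows lie at chr4:124936868-124937167 on the minus strand for Cdca8, and on the plus strand at chr7:131560120-131560419 for Bub3, chr5:30666636-30666935 for Cenpa and chr11:117848987-117849286 for Birc5, each printed 5′ to 3′ on the strand of its gene.

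The first view of the 37 genes was their level at each stage in wildtype libraries. Counts that are compared between genes were divided by the length of the gene model (CPM per kb). Securin, Pttg1, had the highest median level of the 37 in MII oocytes (1240.2 CPM per kb) and in 2-cell embryos (3119 CPM per kb). The next highest at MII were the Ndc80-complex subunit Nuf2 (384 CPM per kb), Aurora kinase Aurkc (364 CPM per kb) and Dsn1 of the Mis12 complex (337 CPM per kb). In 8-cell embryos Birc5 (215 CPM per kb), Aurka (207 CPM per kb) and Spc25 (203 CPM per kb) were on top, with values close to each other relative to their spread. At the other end, the meiotic kleisin Rec8 had 0 counts in all 32 MII libraries. A count of 0 allows up to 0.644 to 1.41 CPM in these libraries. Separase, Espl1, stayed at group means of 4 to 6.99 CPM at every stage.

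**Figure D1:**
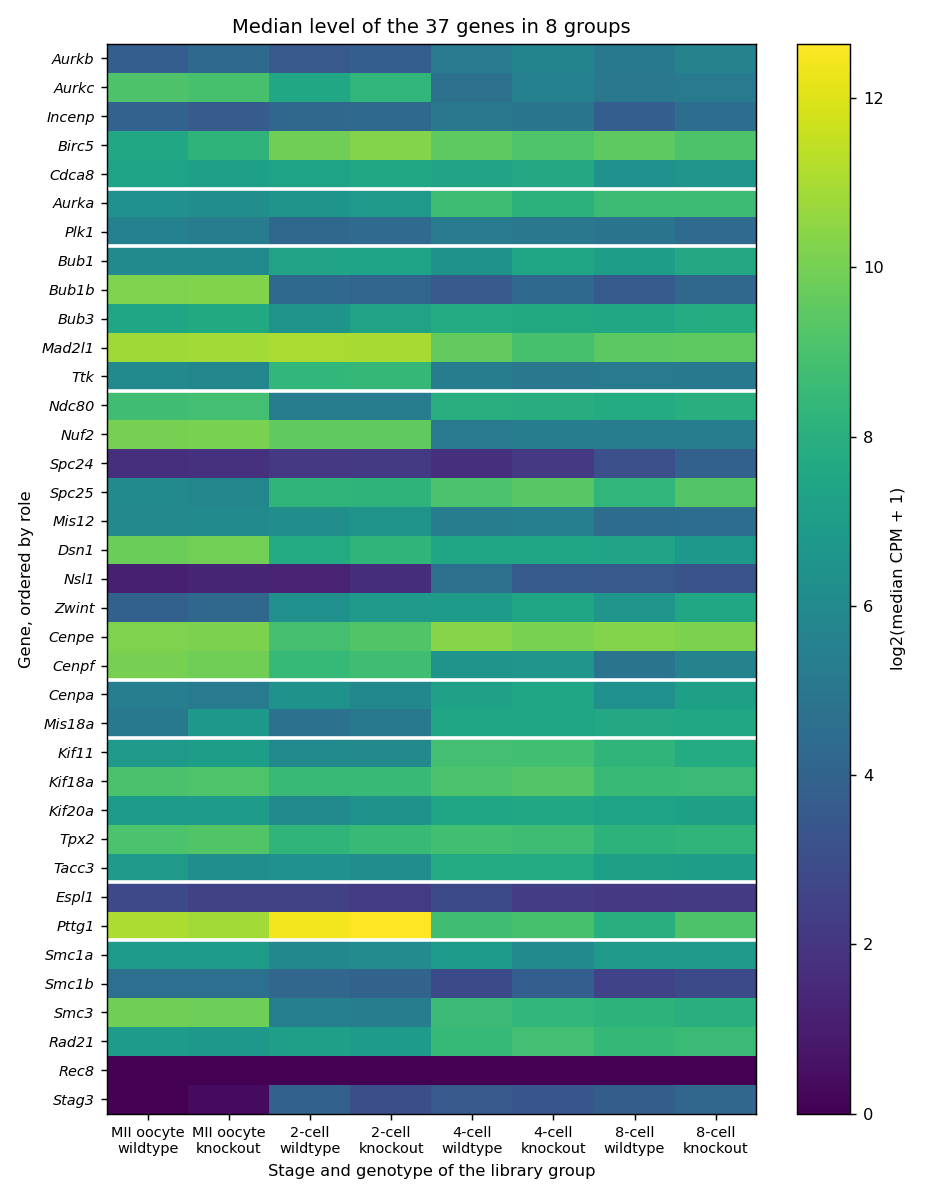
Median level of the 37 genes (rows, ordered and divided by role) in the 8 groups of stage and genotype (columns), as log2 of the median CPM plus 1; 16 libraries a group, 15 for 8-cell knockout. Bub1b, Nuf2, Dsn1 and Smc3 are bright in oocytes, and Pttg1 is brightest in 2-cell embryos. Spc25 is brighter from the 2-cell stage, Aurka and Kif11 are brighter from the 4-cell stage, and Rec8 is dark throughout.

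From wildtype MII oocytes to wildtype 2-cell embryos, 13 of 35 tested members fell and 5 rose, where a call needed an edgeR adjusted p under 0.05 and a log2 fold change of 1 or more in size. Over all genes tested, 19.2% fell and 31.9% rose by the same rule. The median log2 fold change was -0.80 over the members and 0.21 over all genes. With library totals in place of TMM factors the median of all genes was 0.64 and that of the members -0.37. In that fit 8 members rose and 8 fell, and of all 10240 genes tested 4193 rose and 1314 fell.

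The largest fall was that of the checkpoint kinase-like protein BubR1, Bub1b (ENSMUSG00000040084.9, chromosome 2, 118598211 to 118641591, plus strand, mm10). It ran from 997 to 1573 CPM (median 1183) in wildtype oocytes and from 5.09 to 28.1 CPM (median 19.3) in wildtype 2-cell embryos, without overlap (log2 fold change -6.56, SE 0.28, edgeR adjusted p = 1.06e-31). Smc3, a core arm of the cohesin ring, went from 842 to 1055 CPM down to 22.8 to 129 CPM (-4.68, SE 0.23). Ndc80, which binds microtubules at the kinetochore, went from 306 to 546 CPM down to 9.69 to 81.2 CPM (-3.82, SE 0.19). Each of these ranges was separate too. Dsn1 (-2.42, SE 0.11), Aurkc (-1.96, SE 0.19) and Cenpf, a large kinetochore protein (-1.89, SE 0.10), made up the 6 largest falls, and Plk1, Bub3, Cenpe, Kif11, Kif20a, Tpx2 and Smc1a also fell.

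The 5 genes that rose were the meiotic cohesin subunit Stag3 (4.90, SE 0.54), the Knl1-binding kinetochore protein Zwint (2.22, SE 0.18), the checkpoint kinase Ttk (1.95, SE 0.22), survivin, Birc5 (1.89, SE 0.17), and Spc25 of the Ndc80 complex (1.79, SE 0.29). Stag3 was at 0 counts in 10 of 16 wildtype oocytes and between 0.969 and 31.0 CPM in 2-cell embryos, so the size of its fold change depends on the few counts in oocytes. Ttk rose from 43.0 to 81.2 CPM (median 66.0) in oocytes to 198 to 527 CPM (median 328) in 2-cell embryos. Within one complex the levels moved apart: of the Ndc80 complex, Ndc80 fell, Spc25 rose, and Nuf2 had a log2 fold change of -0.99 (SE 0.12), just short of the fold required.

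From the 2-cell to the 4-cell stage, 11 of 35 tested members rose and 9 fell in wildtype. Over all genes tested, 30.5% rose and 43.9% fell, and the median of all genes was -0.48, against 0.33 for the members. With RLE factors, which place the median of all genes at -0.76, 7 members rose and 10 fell. In that fit 2862 of all 10766 genes tested rose and 5036 fell. Nsl1 of the Mis12 complex rose most (3.35, SE 0.37), from 0 to 7.23 CPM to 10.9 to 48.7 CPM. Smc3 (2.71, SE 0.16), the bipolar spindle motor Kif11 (2.48, SE 0.16) and Ndc80 (2.47, SE 0.20) also rose, so that Smc3 and Ndc80 returned to 283 to 513 CPM and 149.8 to 413 CPM after their low 2-cell levels. The CENP-A loading factor Mis18a (2.28, SE 0.18) and the spindle pole kinase Aurka (1.92, SE 0.20) completed the 6 largest rises. Of the members that fell, Nuf2 went from 356 to 991 CPM down to 15.7 to 107 CPM (-4.26, SE 0.22). Pttg1 went from 2263 to 6817 CPM down to 113 to 617 CPM (-3.80, SE 0.19). Ttk (-3.33, SE 0.22), Aurkc (-2.91, SE 0.36), Cenpf (-2.15, SE 0.18) and the checkpoint protein Mad2l1 (-1.74, SE 0.13) followed. Bub1b had no such recovery: its 4-cell wildtype level was 4.29 to 23.9 CPM (median 10.7), in a range that overlapped that of the 2-cell stage.

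From the 4-cell to the 8-cell stage in wildtype, 1 of 36 tested members rose and 3 fell, against 9.32% and 11.3% of all genes. Spc24 rose (1.19, SE 0.38), and Cenpf (-1.58, SE 0.29), the passenger scaffold Incenp (-1.20, SE 0.24) and Nsl1 (-1.12, SE 0.27) fell. Adjusted p-values of the wildtype steps named in these paragraphs were at most 0.0109 (edgeR quasi-likelihood F test, adjusted over all genes by Benjamini-Hochberg).

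Pairs of members exist in a mitotic and a germ-line form. Of the length-scaled counts of Aurkc plus Aurkb, the Aurora kinases that occupy the same place in the passenger complex, Aurkc held a median of 98.2% in wildtype oocytes (range 96.5% to 99.7%) and 96.8% in wildtype 2-cell embryos. In wildtype 4-cell embryos the median was 36.8%, with single embryos from 15.8% to 87.4%, and in 8-cell embryos 53.2%. The shift had parts from both genes, since the mean of Aurkc fell from 185 to 30.2 CPM while that of Aurkb went from 9.90 to 41.2 CPM between the 2-cell and 4-cell stages. Of the counts of the cohesin arms Smc1b plus Smc1a, the meiotic form Smc1b held a median of 19.4% in wildtype oocytes and 4.61% in 8-cell embryos. Rec8 held at most 3.05% of Rec8 plus Rad21 in any library. These shares are a description and were not tested.

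**Figure D2:**
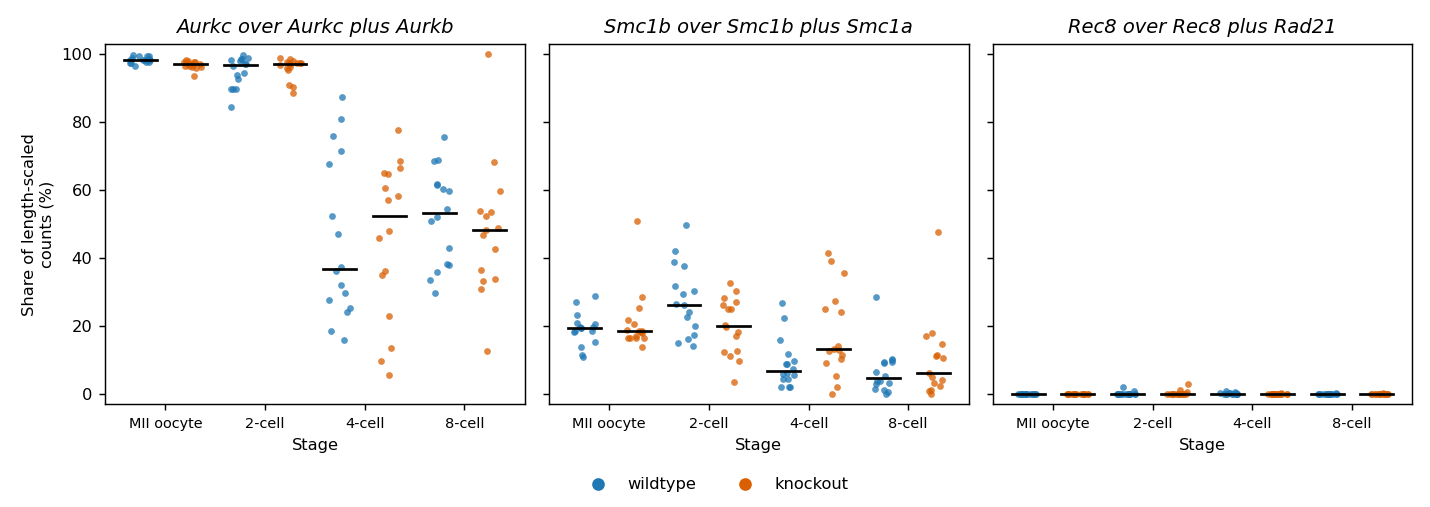
Share (%) of length-scaled counts held by the germ-line form in each of 3 pairs, by stage; each point is one library (blue wildtype, orange knockout) and each bar the group's median. The lowest Aurkc share in an oocyte or 2-cell embryo is 84.4% and the shares spread widely from the 4-cell stage, the Smc1b share is lower from the 4-cell stage, and the Rec8 share is at or near 0.

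The main question of the design is what the maternal Kdm4a copy changes. Among tested members, the calls at an edgeR adjusted p under 0.05 were 3 higher and 1 lower of 33 in knockout MII oocytes, 8 and 1 of 33 in 2-cell embryos, 2 and 3 of 35 in 4-cell embryos and 5 and 1 of 35 in 8-cell embryos. The shares of all tested genes called higher were 5.27%, 7.25%, 8.97% and 8.55% in that order of stages, and those called lower 6.69%, 10%, 7.46% and 3.02%. At the 2-cell stage 24.2% of the tested members were higher, and their median log2 fold change was 0.23, against -0.01 over all genes. The members were chosen with earlier results of these data known. The 2-cell count of 8 higher was 3 with all 8 groups in one fit, where 1.67% of all genes were higher, and 0 in the libraries numbered 9 to 16. At the other stages the members' medians were -0.03, 0.06 and 0.07 for MII, 4-cell and 8-cell, close to those of all genes. Of the 37 genes, 19 were called at one stage or more and 18 at none. The 19 include Nuf2 and Cenpf, which were not called without 8-cell knockout 7. The share of all genes called at one stage or more was not computed, so this count has no background beside it. Rec8 was tested at no stage, and Spc24, Nsl1, Espl1 and Stag3 at some stages did not pass the filter on low counts. In no gene and stage were the ranges of the genotypes fully separate. Whether a genotype difference itself changed from one stage to the next was tested as an interaction: from MII to 2-cell it went up in 3 and down in 1 of 35 members, against 1.93% and 2.06% of all genes. From 2-cell to 4-cell it went up in 3 and down in 5 of 35, against 11.4% and 4.03%, and from 4-cell to 8-cell up in 2 and down in 0 of 36, against 2.13% and 0.601%. Between the 2-cell and 4-cell stages the median interaction was 0.20 over all genes and -0.16 over the members.

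**Figure D3:**
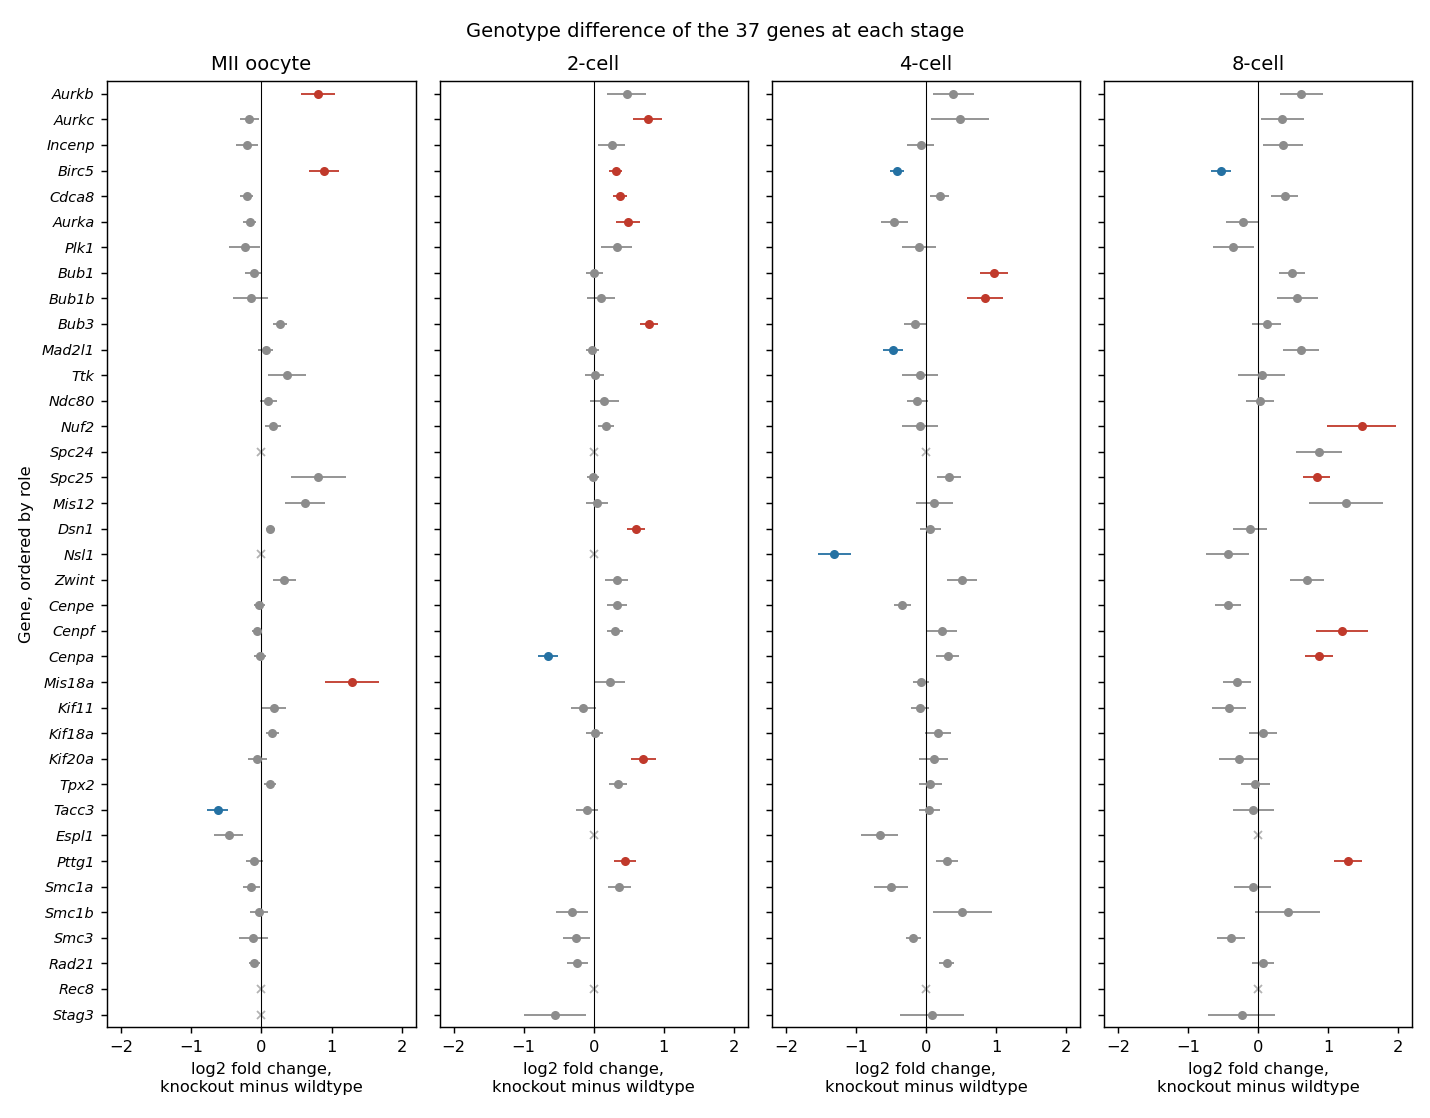
Log2 fold change (knockout minus wildtype) with its standard error for each of the 37 genes, ordered by role, at each stage, from edgeR; red is called higher, blue called lower (adjusted p under 0.05), grey not called and a cross not tested. The 2-cell panel holds 8 red points and the 8-cell panel 5, and Birc5 is red at the first 2 stages and blue at the last 2; Nuf2 and Cenpf in the 8-cell panel rest on knockout replicate 7.

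Birc5 (ENSMUSG00000017716.15, chromosome 11, 117849251 to 117855743, plus strand, mm10) codes for survivin, the subunit that takes the chromosomal passenger complex to centromeres. It was called at all 4 stages. In MII oocytes its lowest, median and highest levels were 123, 190.2 and 293 CPM in wildtype and 145, 297 and 918 CPM in knockout. Of the knockout oocytes, 8 of 16 lay above every wildtype oocyte (log2 fold change 0.89, SE 0.22, edgeR adjusted p = 0.00606). Without MII knockout 15, which had the highest value, the fold change was 0.68 (SE 0.18, edgeR adjusted p = 0.00798). In 2-cell embryos the values were 791, 969 and 1285 CPM against 885, 1236 and 1506 CPM (0.31, SE 0.09, adjusted p = 0.0131), with overlapping ranges. From then on the order was opposite. In 4-cell embryos the values were 601, 729 and 931 CPM in wildtype against 424, 562 and 725 CPM in knockout (-0.41, SE 0.10, adjusted p = 0.0053), and all 16 knockout embryos lay below the wildtype median. In 8-cell embryos they were 505, 732 and 951 CPM against 141, 553 and 730.3 CPM (-0.53, SE 0.14, adjusted p = 0.0124), and all 15 knockout embryos lay below the wildtype median. Without 8-cell knockout 7 the last value was -0.48 (SE 0.11). The difference between genotypes changed by -0.71 (SE 0.14, edgeR interaction adjusted p = 3.26e-04) from the 2-cell to the 4-cell stage.

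**Figure D4:**
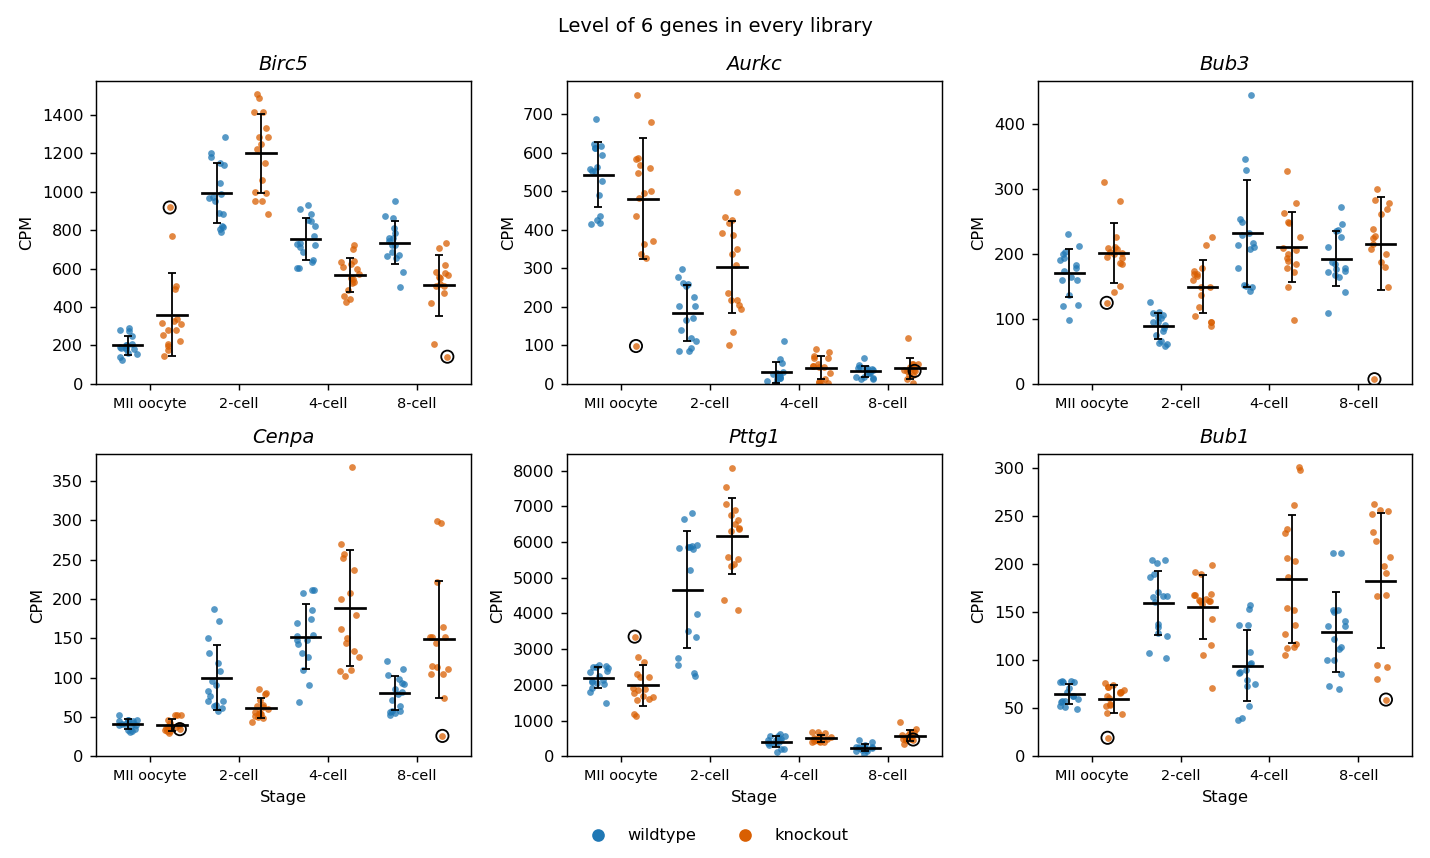
Level (CPM, linear axis from 0) of 6 genes in every library by stage; blue points are wildtype, orange knockout, black lines the mean with its SD, and circles mark the libraries labelled MII knockout 15 and 8-cell knockout 7. Birc5 is higher in knockout at the first 2 stages and lower at the last 2, Bub3 is higher and Cenpa lower in knockout 2-cell embryos, Pttg1 is higher in knockout 8-cell embryos, and Bub1 is higher in knockout 4-cell embryos.

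Of the other passenger genes, Aurkb was called at MII, and Aurkc and Cdca8 at the 2-cell stage. Aurkb, the mitotic kinase of the complex, had low levels at MII of 2.46, 12.5 and 19.3 CPM in wildtype against 2.09, 19.9 and 30.9 CPM in knockout. It was higher in knockout by 0.81 (SE 0.24, edgeR adjusted p = 0.0245), and in 13 of 16 knockout oocytes it exceeded the wildtype median. It was no longer called without replicate 2 (adjusted p = 0.063) or replicate 10 (0.0544), and without MII knockout 15 the value was 0.90 (SE 0.21, edgeR adjusted p = 0.00215). In 2-cell embryos the germ-line kinase Aurkc was higher in knockout, at 102, 323 and 498 CPM against 84.2, 186 and 299 CPM in wildtype (0.77, SE 0.21, adjusted p = 0.0117), with 9 of 16 knockout embryos above every wildtype embryo. Borealin, Cdca8, was higher by a smaller step, at 156, 191 and 232 CPM against 92.5, 158 and 233 CPM (0.38, SE 0.10, adjusted p = 0.0106), and 88.2% of its non-zero values were not whole numbers. Incenp was called at no stage, with group medians of 11.8 to 32.8 CPM.

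Among the mitotic kinases, Aurka was higher in 2-cell knockout embryos, at 62.5, 113 and 185 CPM against 37.1, 93.6 and 141 CPM (0.49, SE 0.17, edgeR adjusted p = 0.0421). This call was lost in 9 of 16 fits that left out one replicate number, with an adjusted p of up to 0.12. The genotype difference of Aurka changed by -0.92 (SE 0.28, adjusted p = 0.0162) from the 2-cell to the 4-cell stage, where medians were 419 CPM in wildtype and 277 CPM in knockout. Plk1, which acts at centrosomes and kinetochores, was called at no stage.

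In the spindle assembly checkpoint, different genes were called at different stages. Bub3 (ENSMUSG00000066979.6, chromosome 7, 131560222 to 131571895, plus strand, mm10), which holds Bub1 and BubR1 at kinetochores, had 57.9, 92.9 and 127 CPM in wildtype 2-cell embryos and 89.9, 155 and 226 CPM in knockout. In 11 of 16 knockout embryos it was above every wildtype embryo (0.79, SE 0.13, edgeR adjusted p = 7.01e-05). In 4-cell embryos the medians were 216 and 203 CPM, and the genotype difference had changed by -0.93 (SE 0.22, adjusted p = 0.00192).

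At the 4-cell stage the related kinases Bub1 and Bub1b were higher and Mad2l1 was lower in knockout. Bub1 (ENSMUSG00000027379.13, chromosome 2, 127801122 to 127831865, minus strand, mm10) had 37.8, 88.9 and 157 CPM in wildtype and 106, 171 and 301 CPM in knockout. All 16 knockout embryos lay above the wildtype median and 8 above every wildtype embryo (0.97, SE 0.20, edgeR adjusted p = 8.55e-04). In wildtype Bub1 fell between the 2-cell and 4-cell stages, from a median of 167 to 88.9 CPM (-1.06, SE 0.17). In knockout the medians were 162 and 171 CPM, and the difference changed by 0.98 (SE 0.24, adjusted p = 0.0026). Bub1b was at 4.29, 10.7 and 23.9 CPM against 6.37, 19.2 and 49.6 CPM (0.84, SE 0.26, adjusted p = 0.0214), a call lost without replicate 2 (0.0505) or replicate 12 (0.077). Mad2l1, which inhibits the activator of the anaphase promoting complex, was at 449, 774 and 1087 CPM in wildtype and 318, 501 and 982 CPM in knockout, a wide overlap in which 14 of 16 knockout embryos lay below the wildtype median (-0.47, SE 0.14, adjusted p = 0.0204; 0.0528 without replicate 14). Ttk was called at no stage. The summed level of the oocyte markers had a median of 115 CPM in wildtype and 194 CPM in knockout 4-cell embryos, and the part of such a difference in these calls was not tested.

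In the outer kinetochore, Dsn1 was higher in knockout 2-cell embryos, at 218, 308 and 459.8 CPM against 133, 214 and 337 CPM (0.61, SE 0.13, edgeR adjusted p = 0.00109). All 16 knockout embryos lay above the wildtype median. Its partner in the Mis12 complex, Nsl1 (ENSMUSG00000062510.12, chromosome 1, 191063012 to 191086474, plus strand, mm10), was lower in knockout 4-cell embryos, at 2.06, 10.8 and 20.5 CPM against 10.9, 24.3 and 48.7 CPM (-1.31, SE 0.24, adjusted p = 2.77e-04). All 16 knockout embryos lay below the wildtype median and 8 below every wildtype embryo. Mis12 itself, whose model shares 11.5% of its bases with Derl2 on the other strand, was called at no stage. Ndc80 was not called either.

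Further outer kinetochore genes differed at the 8-cell stage, some of them only with or only without knockout replicate 7. Spc25 was at 126, 323 and 627 CPM in wildtype and 344, 611 and 990.4 CPM in knockout, with all 15 knockout embryos above the wildtype median (0.84, SE 0.19, edgeR adjusted p = 0.00514; 0.83, SE 0.17, without replicate 7). Nuf2 was called higher (1.47, SE 0.50, adjusted p = 0.049) on the strength of that library: without it the fold change was -0.05 (SE 0.20, adjusted p = 0.898), with medians of 38.7 CPM in wildtype and 38.2 CPM in knockout. Cenpf was called higher at 1.20 (SE 0.37, adjusted p = 0.0285) and not without the library (0.59, SE 0.25, adjusted p = 0.12). Spc24 and Zwint were called only without it. Spc24 had a median of 15.8 CPM in the 14 remaining knockout embryos against 7.44 CPM in wildtype (0.97, SE 0.27, adjusted p = 0.0153), and Zwint 203 against 96.8 CPM (0.80, SE 0.19, adjusted p = 0.0058).

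Without replicate 7, the 8-cell count was 8 members higher and 1 lower; without MII knockout 15, the MII count was 4 higher and 1 lower, with Bub3 (0.29, SE 0.10, edgeR adjusted p = 0.0311) added. Over all genes tested in these fits, 6.94% were higher and 5.42% lower at 8-cell, and 9.80% and 9.79% at MII. The 8-cell members called higher were Pttg1, Cenpa, Spc25, Zwint, Spc24, Aurkb (0.73, SE 0.21), Bub1 (0.53, SE 0.18) and Cdca8 (0.47, SE 0.15), and Birc5 was the one called lower, with adjusted p-values of at most 0.0431.

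Cenpa (ENSMUSG00000029177.9, chromosome 5, 30666777 to 30674830, plus strand, mm10), the histone H3 variant that marks centromeres, went in opposite directions in knockout at different stages. In 2-cell embryos it was at 57.9, 86.4 and 187 CPM in wildtype and 43.6, 58.2 and 85.2 CPM in knockout. All 16 knockout embryos lay below the wildtype median and 8 below every wildtype embryo (-0.65, SE 0.15, edgeR adjusted p = 0.00213). In 8-cell embryos it was at 53.1, 81.0 and 121 CPM against 26.0, 144 and 299 CPM, the lowest value being that of replicate 7, and 8 of 15 knockout embryos lay above every wildtype embryo (0.86, SE 0.19, adjusted p = 0.00478; 0.94, SE 0.17, without replicate 7). The genotype difference changed by -0.65 (SE 0.17, adjusted p = 0.019) from MII to 2-cell and by 0.96 (SE 0.23, adjusted p = 0.00228) from 2-cell to 4-cell. Its loading factor Mis18a was higher in knockout oocytes, at 10.7, 106 and 227 CPM against 5.50, 33.1 and 143 CPM (1.29, SE 0.39, adjusted p = 0.0272). The oocyte-to-oocyte spread of Mis18a was wide in both genotypes, and the call was lost without replicate 2, 11 or 14 (adjusted p of up to 0.0638). Without MII knockout 15 the value was 1.38 (SE 0.39, edgeR adjusted p = 0.0135).

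Of the spindle motors and assembly factors, Tacc3, which links microtubules in the spindle, was lower in knockout oocytes, at 8.05, 76.2 and 101 CPM against 77.9, 109 and 159.8 CPM. All 16 knockout oocytes lay below the wildtype median and 9 below every wildtype oocyte (-0.63, SE 0.15, edgeR adjusted p = 0.00548; -0.54, SE 0.09, without replicate 15, which had the lowest value). All non-zero values of Tacc3 were fractional, and 19.0% of its model overlaps Tmem129 on the other strand. Kif20a, a motor of the anaphase midzone, was higher in knockout 2-cell embryos, at 51.5, 85.4 and 199 CPM against 23.2, 65.8 and 114 CPM (0.70, SE 0.18, adjusted p = 0.00654). Of its gene model, 66.3% overlaps Cdc23 on the opposite strand, and without a stated strand setting reads of this pair cannot be told apart. Kif11, Kif18a and Tpx2 were called at no stage. Tpx2 had an adjusted p of 0.0547 in 2-cell embryos and 0.0316 without knockout replicate 13, the smallest 2-cell library.

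Pttg1 (ENSMUSG00000020415.16, chromosome 11, 43420250 to 43426251, minus strand, mm10) codes for securin, the inhibitor of separase. It was higher in knockout 2-cell and 8-cell embryos. In 2-cell embryos it was at 2263, 5509 and 6817 CPM in wildtype and 4090.0, 6376 and 8075 CPM in knockout (0.44, SE 0.16, edgeR adjusted p = 0.0451), a call lost in 9 of 16 fits that left out a replicate number. In 8-cell embryos it was at 62.5, 239.6 and 459 CPM against 340.3, 546 and 973 CPM, and 13 of 15 knockout embryos lay above every wildtype embryo (1.29, SE 0.20, adjusted p = 5.96e-04; 1.23, SE 0.18, without replicate 7). From the 4-cell to the 8-cell stage the median of wildtype embryos went from 438 to 239.6 CPM and that of knockout embryos from 490.0 to 546 CPM, and the genotype difference changed by 0.96 (SE 0.25, adjusted p = 0.0198). Espl1 had too few counts to be tested at the 2-cell and 8-cell stages.

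None of the 6 cohesin genes was called in a genotype comparison, with 4 or 5 of them tested at each stage by edgeR. At an unadjusted edgeR p under 0.05 there were 0 at MII, 1 in 2-cell, 2 in 4-cell and 0 in 8-cell embryos. Over all genes the same rule gave 1950 of 7680, 2769 of 8728, 2278 of 7478 and 1931 of 7219. DESeq2 called 1, Rad21 in 4-cell embryos (adjusted p = 0.0279), where it called 836 of 7478 genes higher and 665 lower. Smc1a medians in 4-cell embryos were 116 CPM in wildtype and 65.5 CPM in knockout (-0.50, SE 0.24, edgeR adjusted p = 0.16). Rad21, the mitotic kleisin, had medians of 359 and 465 CPM at that stage (0.29, SE 0.11, adjusted p = 0.0611). Its genotype difference changed by 0.54 (SE 0.19, adjusted p = 0.037) from the 2-cell to the 4-cell stage.

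The 2-cell calls differed between ranges of replicate numbers. In an edgeR fit of the libraries numbered 1 to 8 alone, 8 members were higher and 2 lower, and of all genes 6.76% and 8.87%. These 8 are not all the same genes: Birc5 (edgeR adjusted p = 0.0737) and Pttg1 (0.056) were not called in that fit. In the libraries numbered 9 to 16 no member passed edgeR's adjusted threshold, and of all genes 0.431% were higher and 1.20% lower. At an unadjusted edgeR p under 0.05 there were 7 of 33 members and 1351 of 8584 genes. The 9 members called over all libraries kept their sign in both ranges, which are parts of the same libraries and so no separate test. Their log2 fold changes ran from 0.33 (Birc5) to 1.19 (Aurkc) for the 8 higher ones in the first range and from 0.07 (Aurka) to 0.47 (Dsn1) in the second, and Cenpa was at -0.76 and -0.56. The labels do not say that the numbers mark batches. The summed level of 8 markers of the 2-cell embryo had a median of 2659.6 CPM in wildtype and 1416 CPM in knockout 2-cell embryos, and its part in these calls was not tested.

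Other genes of the same processes were followed through 5 lists of 106 genes, also chosen with earlier results of these data known. In 2-cell embryos, 9 of 96 tested were higher and 8 lower (9.38% and 8.33%, against 7.25% and 10% of all genes). Of 31 other spindle motors and microtubule factors, 5 were higher and 1 lower, led by Nusap1 (0.88, SE 0.19), Racgap1 (0.65, SE 0.14) and Aspm (0.74, SE 0.19), which act on microtubules at the spindle or midzone. Of 16 tested subunits and activators of the anaphase promoting complex, Anapc10 (0.36, SE 0.10), Anapc4 (0.51, SE 0.16) and Anapc5 (0.43, SE 0.15) were higher and none lower. Of 28 other centromere and kinetochore genes, 6 were lower and none higher, with Ska1 (-0.56, SE 0.15), Cenpl (-0.65, SE 0.20) and Cenpx (-0.55, SE 0.18) first by p. Adjusted p-values of these genes ran from 0.00129 to 0.0407 in edgeR.

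At MII, 10 of 88 other genes were higher and 2 lower (11.4% and 2.27%, against 5.27% and 6.69% of all genes), among them Anapc1 (0.58, SE 0.13), the Ska complex genes Ska3 (1.11, SE 0.29) and Ska1 (0.45, SE 0.12), the augmin subunit Haus3 (0.68, SE 0.16), and, lower, the gamma-tubulin gene Tubg1 (-0.87, SE 0.25). In 4-cell embryos 10 of 94 were higher and 8 lower (10.6% and 8.51%, against 8.97% and 7.46%). Zwilch, a checkpoint protein of the kinetochore, was higher (0.91, SE 0.17), as were Ckap2 (1.02, SE 0.22) and Kif2a (1.01, SE 0.23), while Cenpw was lower (-1.03, SE 0.22), as were Cdc20 (-0.59, SE 0.19), which activates the anaphase promoting complex and is the target of Mad2l1, and Cdca5 (-0.59, SE 0.17), which stabilizes cohesin. In 8-cell embryos 8 of 96 were higher and 3 lower (8.33% and 3.12%), shares near those of all genes (8.55% and 3.02%). The 3 lower genes were Cenpw (-0.76, SE 0.20), Anapc13 (-0.999, SE 0.29) and Anapc16 (-0.49, SE 0.15). Of 17 tested subunits and activators of the anaphase promoting complex, 2 were thus lower and 1 was higher. Hjurp, the chaperone that loads CENP-A, was higher (0.67, SE 0.21) in the same group as Cenpa, and Sgo1, which protects centromeric cohesin, was higher too (0.87, SE 0.23). Adjusted p-values of these genes were at most 0.0312 in edgeR. The MII and 8-cell genes named were also called without the libraries that stood apart, Hjurp with 0.53 (SE 0.18, edgeR adjusted p = 0.0468).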

How the data were processed

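RNA of single oocytes or embryos was sequenced, and the submitters' processing notes name Trimmomatic 0.32, STAR 2.5.1a, featureCounts 1.5.1 and the mm10 build. The authors deposited estimated counts for each gene, and 30.6% of the values above 0 are not whole. Strand and multi-mapping settings are not given in the sources used here. Gene length, the other deposited column, was taken as it stands in the authors' table and used for CPM per kb. The 37 members and all lists were chosen with earlier results of these data known.

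Counts were rounded for testing. Libraries under 100000 counts were left out. Genes were filtered with filterByExpr by group, scaled by TMM and tested in edgeR 4.0.16 (R 4.3.3) with the robust quasi-likelihood F test and Benjamini-Hochberg adjustment over all genes. Genotypes were compared within a stage, and stage steps and interactions in fits of 4 groups. CPM, medians and SDs were computed from the deposited counts. Kdm4a was tested with 100000 permutations. No pair of libraries within a group was within sampling noise. The procedure was tested on simulated data. Alternatives were DESeq2 1.42.0, RLE factors, library totals, no filter, a replicate block, ranges of replicate numbers, all 8 groups in one fit, and leaving out each replicate number.

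Every member called in a genotype comparison or interaction was named with its statistics. For stage steps these were the 6 largest changes each way, and for the other lists up to 3 called genes each way by p. Of the genes this rule names, 1 is not reported here. With 528377 to 4657857 counts per library, a count of 0 allows up to 3 counts, counting error only.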

Additional observations from a re-analysis of the deposited data

Results flagged for a closer look

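The genotype difference (knockout minus wildtype, log2) of these members changed between consecutive stages, by an edgeR interaction test with adjusted p under 0.05. From MII to the 2-cell stage it changed by 0.91 for Aurkc (SE 0.26, edgeR adjusted p = 0.0292), 0.56 for Cdca8 (SE 0.14, 0.0115), 0.74 for Kif20a (SE 0.23, 0.0488) and -0.65 for Cenpa (SE 0.17, 0.019). Without MII knockout 15 the values were 0.85 (0.0237), 0.56 (0.00832), 0.70 (0.0468) and -0.64 (0.0164) in the same order. None of the 4 was called with all 8 groups in one fit, 1 (Cdca8) without a filter on low counts and 2 (Cdca8 and Cenpa) with the replicate block.

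From the 2-cell to the 4-cell stage it changed by -0.71 for Birc5 (SE 0.14, edgeR adjusted p = 3.26e-04), -0.93 for Bub3 (SE 0.22, 0.00192), -0.92 for Aurka (SE 0.28, 0.0162), -1.53 for Nsl1 (SE 0.51, 0.0298) and -0.64 for Cenpe, a kinetochore motor (SE 0.20, 0.0219). It changed by 0.98 for Bub1 (SE 0.24, 0.0026), 0.96 for Cenpa (SE 0.23, 0.00228) and 0.54 for Rad21 (SE 0.19, 0.037).

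From the 4-cell to the 8-cell stage it changed by 0.96 for Pttg1 (SE 0.25, edgeR adjusted p = 0.0198; 0.92 and 0.036 without 8-cell knockout 7). For Mad2l1 it changed by 0.97 (SE 0.27, 0.0331), and without 8-cell knockout 7 by 0.57 (0.082).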

How the results depend on the processing

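All counts here are of members called by edgeR, higher then lower in knockout, unless said otherwise. Leaving out one replicate number gave 1 to 4, 6 to 10, 1 to 3 and 3 to 7 higher members at MII, 2-cell, 4-cell and 8-cell, and 1, 1, 2 to 4 and 1 lower. Of 7193 to 8783 genes tested in a fit, 291 to 730, 479 to 707, 547 to 712 and 422 to 635 were higher. Lower in the same order of stages were 387 to 754, 583 to 971, 441 to 593 and 148 to 384. Without 8-cell knockout 7 there were 8 higher members, with 6.94% of all genes higher. Libraries numbered 1 to 8 gave 1 higher at MII, 2 lower at 2-cell, 0 and 0 at 4-cell (5 at unadjusted p under 0.05) and 0 and 0 at 8-cell (4 unadjusted). Libraries numbered 9 to 16 gave 0 lower at MII (10 unadjusted) and 0 and 0 at 2-cell (7 unadjusted). They gave 1 and 1 at 4-cell, and 2 and 0 at 8-cell. Over all genes, numbers 1 to 8 gave 3.74% higher at MII, 8.87% lower at 2-cell, and 1.01% and 0.85% at 4-cell. At 8-cell they gave 0.0138% and 0%. Numbers 9 to 16 gave 1.47% lower at MII, 0.431% and 1.2% at 2-cell, 3.57% and 2.13% at 4-cell, and 1.12% and 0.508% at 8-cell. At an unadjusted edgeR p under 0.05, numbers 1 to 8 gave 1363 of 7527 genes at 4-cell and 1055 of 7263 at 8-cell. Numbers 9 to 16 gave 1347 of 7539 at MII and 1351 of 8584 at 2-cell by that rule. With all 8 groups in one fit there were 0 members lower at MII (5 unadjusted) and 3 higher at 2-cell. At 8-cell there were 11 higher and 2 lower. In that fit 1.2% of all genes were lower at MII, 1.67% higher at 2-cell, and 23.4% higher and 4.53% lower at 8-cell. At MII it had 1376 of 12128 genes at an unadjusted edgeR p under 0.05. The replicate block gave 1 member higher at 4-cell, and 2 higher and 0 lower at 8-cell. For other listed genes it gave 5 lower at 2-cell, and 1 higher and 0 lower at 8-cell. Over all genes the block gave 626 higher of 7478 at 4-cell and 593 lower of 8728 at 2-cell. At 8-cell it gave 64 higher and 51 lower of 7219. Same-numbered wildtype and knockout libraries of a stage correlated at -0.28 to 0.17. This does not show whether ranges of numbers mark batches. Other listed genes had 4 lower by DESeq2 at MII, 2 lower without a filter at 2-cell and 4 higher without a filter at 8-cell. In the same order, all genes had 604 lower of 7680, 1204 lower of 31322 and 2311 higher of 25985. Wildtype steps gave 8 members higher and 8 lower from MII to 2-cell by library totals. They gave 7 higher from 2-cell to 4-cell by RLE, and 5 lower from 4-cell to 8-cell by library totals. Over all genes these fits called 4193 higher and 1314 lower of 10240, 2862 higher of 10766, and 1254 lower of 8822. Interactions of members from MII to 2-cell numbered 1 without a filter and 2 with the block. They numbered 0 with all 8 groups (11 unadjusted) and 7 without MII knockout 15. Over all genes, 108 went up and 113 down of 32009 without a filter, and 146 and 128 of 10240 with the block. The values were 26 and 90 of 12128 with all 8 groups, and 335 and 316 of 10382 without MII knockout 15. Unadjusted, 1271 of 12128 genes passed with all 8 groups. From 2-cell to 4-cell there were 5 members without a filter, where 1356 of 32701 genes went up and 566 down. From 4-cell to 8-cell there were 0 members with the block (4 unadjusted) and 1 without 8-cell knockout 7. Over all genes, 11 went up and 23 down of 8822 with the block, and 85 and 81 of 8908 without that library. Unadjusted, 933 of 8822 genes passed with the block. Nuf2 at 8-cell reversed to -0.079 by DESeq2, -0.072 without replicate 7 and -0.051 without knockout 7 alone, and ran from -0.072 to 1.57 when one replicate number was left out. Of the alternatives for single members, 534 kept direction and call, 110 lost the call and 3 reversed. Apart from the libraries left out and the smaller numbers of libraries, the cause was not tested. Genes with few counts (Rec8, Espl1, Spc24, Nsl1) are limited by depth.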
